A study of Mus musculus with 2 samples.

Results

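The metabotropic glutamate receptors are G protein-coupled receptors for the transmitter glutamate, and 7 of their genes were taken by name from the 43346 mouse genes listed: Grm5 of receptor group 1, Grm2 and Grm3 of group 2, and Grm4, Grm6, Grm7 and Grm8 of group 3. All 7 were matched by Ensembl identifier. The levels came from the hindbrain of 2 B6NCrl mouse pups at postnatal day 0, pup 1 (replicate 1) and pup 3 (replicate 2), with 1 library each and no treatment. The input was 13 pg of RNA longer than 200 nt per library, named 1 cell-equivalent in the labels, so a library holds RNA of the tissue's mixed cells and not of a sorted cell. The labels give 1 donor record for both pups and no sex. With 1 group the series allows no test between groups, so each difference between the pups is a description with no replicate check.

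Receptors of group 1 act through Gq proteins and phospholipase C, release calcium from internal stores and sit mainly beside the synapse on receiving neurons. Receptors of groups 2 and 3 act through Gi and Go proteins, lower cyclic AMP and reduce transmitter release, most of them from axon terminals. Grm3 and Grm5 are also known from astrocytes, and Grm6 is known from ON bipolar cells of the retina, where it detects the glutamate of photoreceptors.

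Levels are given as an expected count, the quantifier's estimate of the reads of a gene, and as TPM, which scales counts by transcript length to a fixed total, here the total of nuclear mouse genes. The libraries held 35462381 expected counts in pup 1 and 29866728 in pup 3, and detection means 5 or more expected counts. Counting intervals are exact Poisson intervals at 95%. They cover counting error only, because the reads were amplified and do not stand for separate molecules. As a check of the tissue label, 7 of 9 hindbrain markers were detected in both pups, with Hoxb2 at 0 counts in both and Hoxb4 at 3 and 0. Of 7 forebrain markers 1 was detected, Neurod6, at 18.6 TPM in pup 1, against 49.4 TPM in pup 3, and the other 6 had 0 counts. All 6 pan-neuronal markers were detected in both pups, as were 4 of 6 Purkinje cell markers, 4 of 6 of the oligodendrocyte lineage, 2 of 5 of endothelium and 1 of 5 of microglia. For comparison, 37.8% of all protein-coding genes were detected in both pups.

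The coding sequences below show where annotated transcripts of Grm5, Grm7 and Grm8 part, since the deposited transcript tables divided the reads of these genes between such forms. The sequences are from GENCODE M21 on GRCm38, each on the strand of its gene, 5′ to 3′. For Grm5 the capitals mark an exon of 96 bases at chr7:88116193-88116288 that the longer receptor form includes within the intracellular tail, with 20 bases of the neighbouring exons on either side. The form without this exon is known as mGluR5a and the form with it as mGluR5b.
Grm5 with the extra exon: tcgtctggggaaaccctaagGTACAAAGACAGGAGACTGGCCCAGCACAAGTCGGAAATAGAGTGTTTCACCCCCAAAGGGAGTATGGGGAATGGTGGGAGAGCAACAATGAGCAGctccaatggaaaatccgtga
Grm5 without it: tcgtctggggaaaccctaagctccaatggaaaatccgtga

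For Grm7 and Grm8 the alternatives lie at the end of the coding sequence, which sets the last residues of the receptor's intracellular tail. The capitals mark the coding bases that follow the last shared base, with the stop codon, after 20 shared bases in lower case, and the positions given leave out the stop codon. For Grm7 the ends lie at chr6:111501510-111501577, chr6:111566018-111566064 and chr6:111499701-111499735. For Grm8 they lie on the minus strand at chr6:27285688-27285734 and chr6:27275648-27275694.
Grm7 ENSMUST00000071076: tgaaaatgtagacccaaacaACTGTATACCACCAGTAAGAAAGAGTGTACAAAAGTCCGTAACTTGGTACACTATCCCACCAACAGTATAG
Grm7 ENSMUST00000172951: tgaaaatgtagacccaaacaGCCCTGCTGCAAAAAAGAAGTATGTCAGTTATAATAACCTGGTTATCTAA
Grm7 ENSMUST00000173001: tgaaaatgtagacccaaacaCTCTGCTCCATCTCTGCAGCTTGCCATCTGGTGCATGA
Grm8 ENSMUST00000115324: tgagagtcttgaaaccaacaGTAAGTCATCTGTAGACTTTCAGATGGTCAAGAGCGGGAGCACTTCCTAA
Grm8 ENSMUST00000090512: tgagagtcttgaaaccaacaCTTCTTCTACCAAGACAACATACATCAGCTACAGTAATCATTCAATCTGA

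Grm5, Grm3, Grm7 and Grm2 were detected in both pups, Grm4 and Grm8 in pup 3 only, and Grm6 in neither. The 4 of 7 detected in both stand beside 37.8% of 21461 protein-coding genes. Detection in pup 3 only, seen for 2 of 7, held for 5.45% of protein-coding genes, and detection in pup 1 only, seen for 0 of 7, for 12.3%. Detection in neither pup, seen for 1 of 7, held for 44.5%. With so few members these counts describe the family and are not read as a departure from the background.

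**Figure D1:**
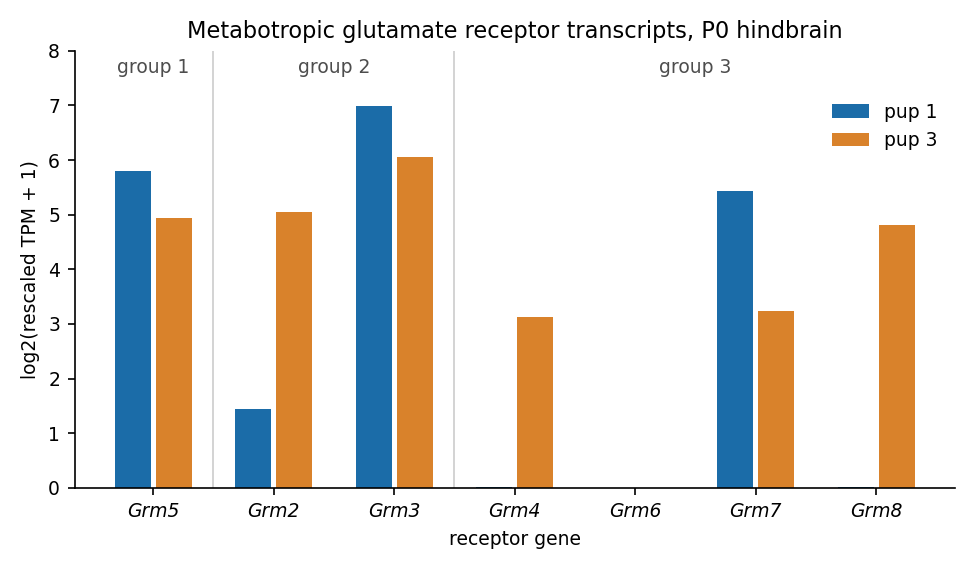
Level of each receptor gene in the 2 libraries as log2(rescaled TPM + 1) on the vertical axis, with 1 bar per pup (pup 1 left, pup 3 right) and the genes ordered by receptor group; there is 1 library per pup, so no error bar is drawn. Grm3 is the highest bar in both pups at 125.9 and 65.3 TPM, Grm4 and Grm8 have a visible bar in pup 3 only, and Grm6 has none.

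Grm5, the Gq-coupled receptor of group 1 that drives calcium release and binds the Homer scaffolds, lies on chromosome 7 (ENSMUSG00000049583.10, 87584168 to 88134907, plus strand). It had 6304 expected counts in pup 1 and 3266 in pup 3, or 54.9 TPM in pup 1 (95% counting interval 53.5 to 56.2) and 29.7 TPM in pup 3 (28.7 to 30.7). The level was higher in pup 1. The counting intervals did not overlap, but they cover counting error only and leave out differences in capture between the libraries. The mean was 42.3 ± 17.8 TPM (SD, n = 2), above 67.8% of the 11905 protein-coding genes detected in at least 1 library. The log2 ratio of pup 1 over pup 3, with 1 TPM added, was 0.87.

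Grm3, a receptor of group 2 found on axon terminals and on astrocytes, lies on chromosome 5 (ENSMUSG00000003974.5, 9485541 to 9725170, minus strand). It had 8963 expected counts in pup 1 and 4097 in pup 3, or 125.9 TPM (123.3 to 128.5) in pup 1 and 65.3 TPM (63.3 to 67.3) in pup 3. It ranked first of the 7 in both pups, with a mean of 95.6 ± 42.9 TPM (SD, n = 2), above 84.3% of detected protein-coding genes. The log2 ratio of pup 1 over pup 3 was 0.94.

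Grm3 and Grm5 were thus both higher in pup 1, by 1.93-fold and 1.85-fold in TPM, and these were the members with the smallest relative difference between the pups. Of 7 astrocyte and radial glial markers, 6 were detected in both pups, with summed levels of 4585 TPM in pup 1, against 4210 TPM in pup 3. The glutamate transporter Slc1a3 of astrocytes was at 532 TPM in pup 1, against 281 TPM in pup 3, the filament gene Gfap at 166 and 73.8 TPM, and the lipid-binding Fabp7 at 2791 and 3012 TPM. Aldh1l1, a defining astrocyte marker, had 6228 counts in pup 1, against 1 in pup 3. The part of these markers in the levels of Grm3 and Grm5 was not tested. In RNA of a whole tissue, fewer cells of a type, less RNA per cell and uneven capture at this input cannot be told apart.

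Grm2, the other receptor of group 2, is known in the cerebellum from Golgi cells and some unipolar brush cells. It lies on chromosome 9 (ENSMUSG00000023192.9, 106643095 to 106656082, minus strand). It had 114 expected counts in pup 1 and 1886 in pup 3, or 1.70 TPM (1.41 to 2.05) in pup 1 and 32.1 TPM (30.6 to 33.5) in pup 3. Grm2 was therefore much the lower of its group in pup 1, and stood at about the level of Grm5 in pup 3. The log2 ratio of pup 1 over pup 3 was -3.61. Of 4 genes listed as markers of cerebellar inhibitory interneurons 3 were detected in both pups, with summed levels of 153 TPM in pup 1, against 180 TPM in pup 3. Gad1 made up 120 TPM of the sum in pup 1 and 106 TPM in pup 3. In RNA of whole hindbrain these genes do not single out cerebellar cells. Pax2, of the interneuron precursors, had 216 counts in pup 1, against 0 in pup 3. The GABA-synthesising Gad2 was at 9.82 TPM in pup 1, against 51.5 TPM in pup 3. Of the 2 unipolar brush cell markers, Eomes had 0 counts in pup 1, against 558 in pup 3 and Lmx1a 293 and 47, with summed levels of 4.36 and 9.62 TPM. The part of these markers in the level of Grm2 was not tested.

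Grm7, a receptor of group 3 that sits in the active zone of axon terminals and responds only to high glutamate, lies on chromosome 6 (ENSMUSG00000056755.9, 110645581 to 111567230, plus strand). It had 2062 expected counts in pup 1 and 464 in pup 3, or 42.4 TPM (40.6 to 44.3) in pup 1 and 8.38 TPM (7.64 to 9.18) in pup 3. It was the only member of group 3 detected in pup 1, and the third highest gene of the family there. The log2 ratio of pup 1 over pup 3 was 2.21, and the ratio in TPM was 5.06. As a share of nuclear counts, without length, the ratio was 3.76 (95% counting interval 3.39 to 4.16), since the gene's effective length was estimated at 2345 bases in pup 1 and 3028 bases in pup 3.

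Grm8, a presynaptic receptor of group 3, lies on the same chromosome (ENSMUSG00000024211.11, 27275119 to 28135178, minus strand). It had 1 expected count in pup 1 and 1376 in pup 3, where its level was 27.0 TPM (25.6 to 28.5). Its share of nuclear counts was lower in pup 1, with pup 3 over pup 1 at 1628-fold (95% counting interval 292 to 64341). Grm4, the presynaptic receptor of cerebellar granule cell axons, lies on chromosome 17 (ENSMUSG00000063239.12, 27422387 to 27521403, minus strand). It had 1 expected count in pup 1 and 623 in pup 3, where its level was 7.68 TPM (7.09 to 8.31). Its share was also lower in pup 1, with pup 3 over pup 1 at 737-fold (132 to 29157).

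A gene's absence from 1 library was common at these levels. Of protein-coding genes at 3 to 10 TPM in pup 3, the range of Grm4, 19.8% were not detected in pup 1, and of those at 10 to 30 TPM, the range of Grm8, 17.1%. For genes at these levels in pup 1, 37.3% and 30.5% were not detected in pup 3. Of 6 markers of the granule cell lineage, 4 were detected in both pups, with summed levels of 150 TPM in pup 1, against 127 TPM in pup 3. Neurod1 was at 45.8 TPM in pup 1, against 43.0 TPM in pup 3, Cbln1 at 37.7 and 39.6 TPM, Pax6 at 40.0 and 20.3 TPM, and Zic1 at 26.9 and 14.2 TPM. Barhl1 had 0 counts in pup 1, against 189 in pup 3, and Gabra6, of mature granule cells, had 0 in both. The part of these markers in the level of Grm4 was not tested.

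Grm6, the receptor of retinal ON bipolar cells, lies on chromosome 11 (ENSMUSG00000000617.10, 50850685 to 50866208, plus strand) and had 0 expected counts in both pups, over all 4 of its listed transcripts. As a floor, which is one-sided unlike the intervals above, a count of 0 allows up to 3 counts, or 0.0446 TPM in pup 1, against 0.0506 TPM in pup 3 at its effective length. Of 10 genes that work with Grm6 in the retina 6 were at 0 counts in both pups, where 44.5% of protein-coding genes were detected in neither. The 6 included its channel Trpm1 and the anchoring proteins Nyx, Lrit3 and Gpr179. The members detected in both were Gnb5 at 69.6 TPM in pup 1, against 49.2 TPM in pup 3, Gng13 at 67.0 and 32.2 TPM, and Rgs11 at 21.1 and 53.1 TPM, G protein subunits and a regulator that other neurons also use. Rgs7 had 1 and 12 counts. Of 6 markers of the retina none was detected in either pup.

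In the order of mean levels Grm3 came first, then Grm5, Grm7, Grm2, Grm8 and Grm4, with Grm6 last. Grm3 lay above Grm5 in both pups, and its lower value exceeded the higher value of Grm5. Grm5 lay above Grm7 in both pups, but their ranges overlapped. Between Grm7 and Grm2, and between Grm8 and Grm4, the order differed between the pups or was tied in pup 1. The gap of the means exceeded the larger SD only between Grm3 and Grm5, at 53.3 against 42.9 TPM. For every other pair of neighbours the gap was smaller than the larger SD. Grm2 lay above Grm8 in both pups, at 1.70 TPM against the single count of Grm8 in pup 1 and at 32.1 against 27.0 TPM in pup 3, but their ranges over the pups overlapped. Grm4 lay above Grm6 in both pups, in pup 1 by 1 count.

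The 7 genes together summed to 224.9 TPM in pup 1, against 170.1 TPM in pup 3, a mean of 197.5 ± 38.8 TPM (SD, n = 2). Group 2 took 56.7% of this in pup 1 and 57.2% in pup 3, group 1, here Grm5, 24.4% and 17.4%, and group 3 took 18.9% and 25.3%. In expected counts, which are not per length, group 2 took 52.03% in pup 1 and 51.1% in pup 3, group 1 took 36.1% and 27.9%, and group 3 took 11.8% and 21.03%. In pup 3 group 3 thus stood above group 1 in TPM and below it in counts. The summed level of group 3 was 42.5 TPM in pup 1, against 43.1 TPM in pup 3, a mean of 42.8 ± 0.442 TPM (SD, n = 2), but different genes made it up. In pup 1 it was Grm7 but for the single counts of Grm4 and Grm8, and in pup 3 it was Grm8, Grm7 and Grm4 at 27.0, 8.38 and 7.68 TPM. Group 2 likewise differed in its make-up, with Grm2 at 1.70 of 127.6 TPM in pup 1 and at 32.1 of 97.3 TPM in pup 3. The near-equal TPM sums of group 3 depend on the scaling by length. In pup 1, 11.2 TPM of that sum came from 74.3 counts of a Grm7 transcript of 418 bases, which had 0 counts in pup 3. In expected counts group 3 summed to 2064 in pup 1, against 2463 in pup 3, the smaller library.

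**Figure D2:**
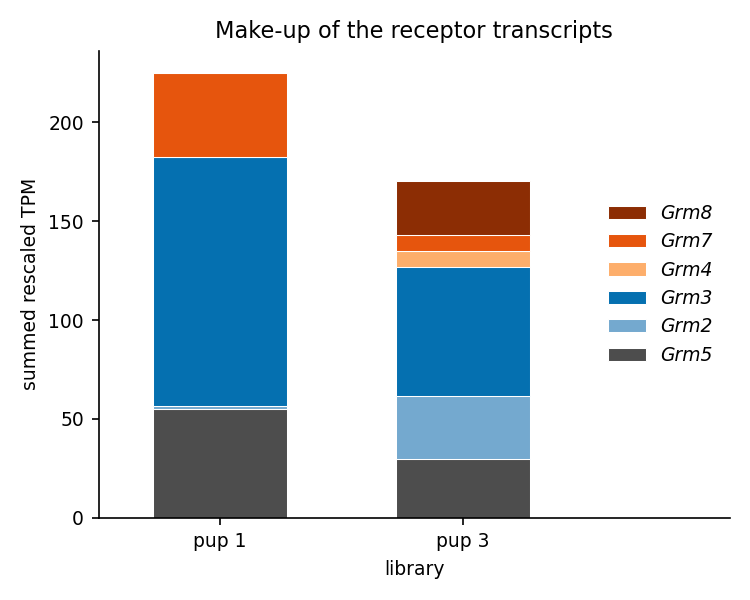
Summed rescaled TPM of the receptor genes in each library, with 1 stacked bar per pup and 1 colour per gene (Grm6, at 0, is not drawn); there is 1 library per pup and no error bar. The orange and brown segments of group 3 add up to 42.5 TPM in pup 1, nearly all Grm7, and to 43.1 TPM in pup 3, where Grm8 is the largest of them.

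Of the 6 members with at least 50 counts in a library, 4 differed between the pups by at least 4-fold in TPM + 1, against 39.8% of the 11245 protein-coding genes with that count. Grm7 was the 1 member higher in pup 1 by this rule (background 23.6%), and Grm2, Grm4 and Grm8 were the 3 members higher in pup 3 (background 16.2%). With 5 TPM added in place of 1, only Grm2 and Grm8 passed. As a share of nuclear counts Grm7 fell short of 4-fold. For neither setting was the share of all protein-coding genes computed, so the smaller numbers are not read as a trait of the members. Taken as pup 1 over pup 3, the log2 ratio had a median of -0.14 over the 8102 protein-coding genes detected in both pups. Over the 4 members detected in both it was 0.90, a value that leaves out Grm4 and Grm8, both lower in pup 1. Of the 6 measured members 3 were higher in pup 1 and 3 in pup 3, so the median is not read as a shift of the family.

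**Figure D3:**
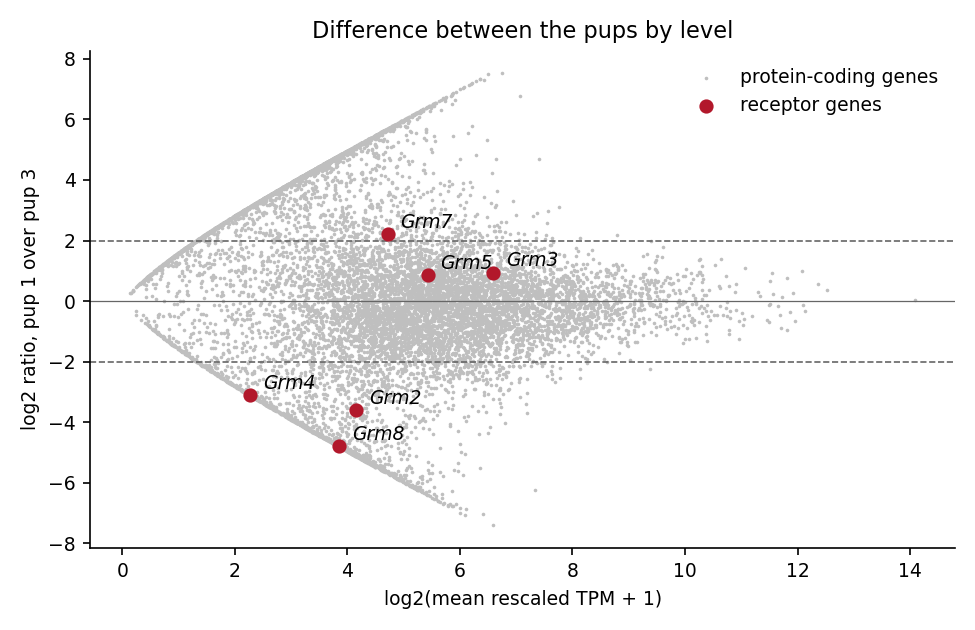
Log2 ratio of pup 1 over pup 3 (vertical) against log2 of mean rescaled TPM + 1 (horizontal) for protein-coding genes with at least 50 counts in a library (grey points) and 6 receptor genes (red points); dashed lines mark 4-fold. Grm3 and Grm5 lie within the lines at 0.94 and 0.87, Grm7 just above the upper line at 2.21, and Grm2, Grm4 and Grm8 below the lower line, with Grm4 and Grm8 on the edge formed by genes with almost no counts in pup 1.

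Paralogs of a family can share reads, which the quantifier then divides. For these genes the posterior standard deviation of the gene's count, the quantifier's own uncertainty from dividing reads, was 0 in both pups, except for Grm7 at 0.08 counts in pup 1, against 0.30 in pup 3, so the deposited estimates record almost no division of receptor reads among genes. In GENCODE M21, exons of Grm2, Grm6 and Grm7 each overlapped those of 1 gene on the opposite strand, and Grm8 held the microRNA gene Mir592 on its own strand. The sources used here do not give the use of strand, so reads of these overlaps cannot be told apart.

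Reads of 1 gene were divided among its listed transcripts, and the deposited percentage gives each transcript's part of the gene's TPM. Grm2 and Grm3 had 1 listed transcript each. All counts of Grm4 fell to ENSMUST00000118161, 1 of its 4 listed transcripts.

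For Grm5, 5 transcripts were listed and 2 took all counts. ENSMUST00000125009 took 4868 counts in pup 1, against 2845 in pup 3, or 63.0% and 77.3% of the gene's TPM. ENSMUST00000107263 took 1436 and 421 counts, or 37.0% and 22.7%. In M21 both code for 1171 codons and have the junction without the 96-base exon shown above, and they differ in their untranslated ends. ENSMUST00000125009 was deposited with a length of 6896 bases, against 8047 in M21. ENSMUST00000155358, which carries that exon in M21 but was deposited with a length of 3739 bases, against 4500 in M21, was at 0 counts in both pups, with a posterior standard deviation of 1.24 counts in pup 1, against 3.53 in pup 3. ENSMUST00000167164, deposited with a length 96 bases above that of ENSMUST00000107263 and not listed in M21, was also at 0, with a posterior standard deviation of 23.0 and 20.7 counts. By their M21 structure, the transcripts that took counts code for the form known as mGluR5a, which in the rat brain is known to precede mGluR5b.

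For Grm7, 3 of 5 transcripts took counts in pup 1 and 1 of 5 in pup 3. ENSMUST00000071076, whose coding end at chr6:111501510-111501577 is the first of the Grm7 sequences above and gives 922 codons, took 1874 counts in pup 1 and all 464 in pup 3, or 70.4% and 100% of the gene's TPM. ENSMUST00000172951, with the second end and 915 codons, took 114 counts in pup 1, against 0 in pup 3. Its posterior standard deviation was 18.5 counts in pup 1, against 2.73 in pup 3. It is 4197 bases long, against 3127 for ENSMUST00000071076, so their untranslated parts also differ. The division between them thus does not rest on the coding end alone. The protein of 915 residues is known as mGluR7a, whose tail binds the scaffold Pick1, and that of 922 residues as mGluR7b. ENSMUST00000173001, a fragment of 418 bases with the third end, took 74.3 counts in pup 1, against 0 in pup 3. These 74.3 counts were 3.60% of the counts of Grm7 in pup 1 but 26.5% of its TPM, because the fragment is short.

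For Grm8 only pup 3 had enough counts to divide. ENSMUST00000115324, with the first of the Grm8 ends above, took 1263 counts and 79.9% of the gene's TPM. ENSMUST00000131897, a model of the first part of the gene that is 1238 bases long, took 113 counts and 20.1%. ENSMUST00000090512, with the second end, was at 0 counts with a posterior standard deviation of 20.1. ENSMUST00000115323, which has the same end as ENSMUST00000115324 in M21, was at 0 counts with a posterior standard deviation of 28.6. The single count of pup 1 fell to ENSMUST00000115324. ENSMUST00000115324 and ENSMUST00000090512 both have 908 codons and also differ in their untranslated ends, so the division does not rest on the coding end alone.

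**Figure D4:**
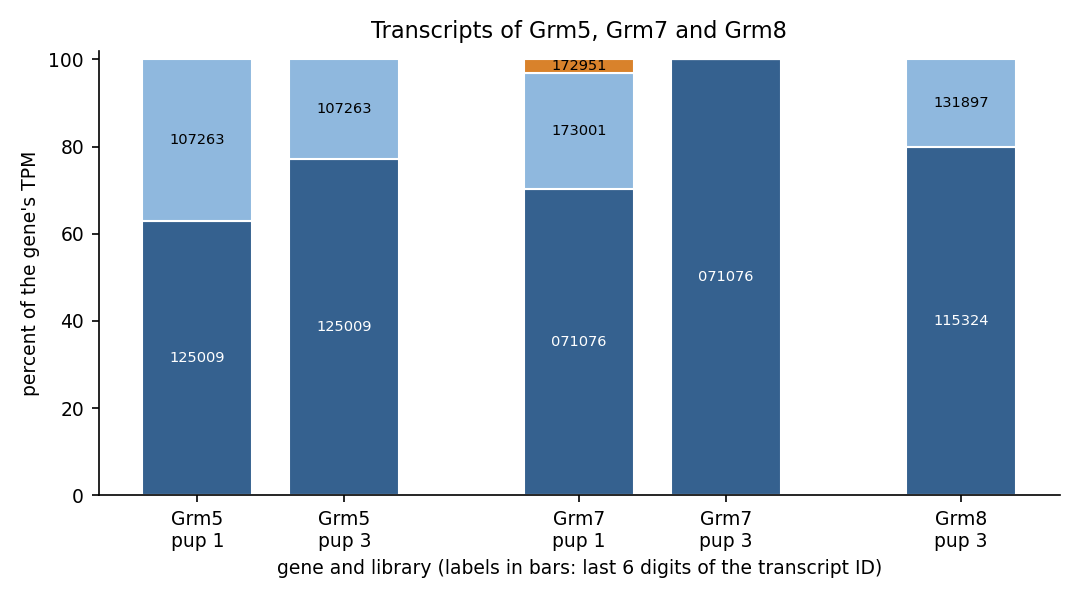
Percent of the gene's TPM (vertical) taken by each transcript of Grm5 and Grm7 in pup 1 and pup 3 and of Grm8 in pup 3, as stacked bars labelled with the last digits of the transcript identifier; Grm8 in pup 1, with 1 count, is not drawn. For Grm5 the same 2 transcripts lead in both pups, and for Grm7 1 of the 3 transcripts of pup 1 takes the whole bar in pup 3.

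The proteins that carry the receptors' signals were described from lists. For comparison with each list below, 37.8% of protein-coding genes were detected in both pups. Medians over all protein-coding genes were 0.113 TPM in pup 1, against 0 in pup 3. Of 12 genes of receptor scaffolds and binding partners, 9 were detected in both pups, and the list's median was 8.49 TPM in pup 1, against 6.65 TPM in pup 3. The highest were Ncdn, the neurochondrin that binds group 1 receptors, at 81.8 ± 4.50 TPM, and Pick1, which binds the tail of Grm7, at 65.3 ± 0.301 TPM (SD, n = 2 each). Grip1, a scaffold with PDZ domains, was at 45.7 TPM in pup 1, against 6.61 TPM in pup 3, and Shank1, the postsynaptic scaffold that links Homer proteins, at 8.50 TPM in pup 1, against 43.4 TPM in pup 3.

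The Homer genes, whose proteins tie Grm5 to its calcium stores, differed between the pups in both directions. Homer1 was at 2.50 TPM in pup 1, against 33.8 TPM in pup 3, Homer2 at 0.644 and 8.69 TPM, and Homer3 at 16.6 and 6.69 TPM. Homer1, Homer2 and Shank1 were at least 4-fold higher in pup 3, and Grip1 and Elfn2 at least 4-fold higher in pup 1, so 5 of the 10 list members with at least 50 counts differed by that much, against 39.8% of protein-coding genes. Elfn2, a synaptic adhesion protein that binds group 3 receptors, had 506 counts in pup 1, against 0 in pup 3, and its relative Elfn1 had 0 and 3.

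Of 15 genes of the Gq pathway, which serves group 1, 7 (46.7%) were detected in both pups. The list's median was 8.24 TPM in pup 1, against 6.46 TPM in pup 3. The G protein subunit Gna11 was at 92.9 TPM in pup 1, against 106.6 TPM in pup 3, while the related subunit Gnaq was at 190.9 and 6.46 TPM. Protein kinase C beta, Prkcb, was at 50.02 and 85.0 TPM. The phospholipases were led by Plcb4 at 54.7 TPM in pup 1, against 16.2 TPM in pup 3 and Plcb1 at 27.5 and 31.4 TPM, and Plcb2 had 0 counts in both. The store channel Itpr1 was at 0.508 and 1.04 TPM, and the lipase Daglb, which makes an endocannabinoid from the product of phospholipase C, had 0 counts in pup 1, against 3199 in pup 3. Among 13 members with at least 50 counts, 3 were at least 4-fold higher in pup 1, Gnaq among them, and 2 in pup 3 (Daglb and Itpr2), with backgrounds of 23.6% and 16.2%.

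Of 17 genes of the Gi/o pathway, which serves groups 2 and 3, 8 (47.1%) were detected in both pups. The list's median was 1.91 TPM in pup 1, against 4.67 TPM in pup 3. The highest by mean level were the G protein subunits Gnao1 at 192.01 and 66.9 TPM, Gnai2 at 160.4 and 57.7 TPM and Gnai3 at 88.99 and 90.8 TPM in pup 1 and pup 3. The calcium-stimulated cyclase Adcy1 was at 11.04 TPM in pup 1, against 38.4 TPM in pup 3, the cyclase Adcy5 at 36.0 and 12.7 TPM, and the subunit Gnai1 at 35.04 and 4.67 TPM. Of the inwardly rectifying potassium channels that Gi/o proteins open, Kcnj3 had 157 counts in pup 1, against 0 in pup 3, and Kcnj5, Kcnj6 and Kcnj9 had 0 in both. Only Gnai1, higher in pup 1, and Adcy7, higher in pup 3, differed by at least 4-fold among the 11 members with at least 50 counts, against 39.8% of protein-coding genes.

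Of 11 genes that shut the receptors off, 5 (45.5%) were detected in both pups. The list's median was 21.7 TPM in pup 1, against 0.536 TPM in pup 3. The regulators of G protein signalling Rgs4, at 152.4 TPM in pup 1, against 92.1 TPM in pup 3, and Rgs2, at 68.2 and 93.1 TPM, were the highest. The receptor kinase Grk4 was at 5.26 TPM in pup 1, against 43.5 TPM in pup 3. Rgs8 had 3748 counts in pup 1, against 0 in pup 3, the arrestins Arrb1 and Arrb2 301 and 1426 against 0, and the kinase Grk2 1429 against 0. With Grk6, these were the 5 members at least 4-fold higher in pup 1, of 9 with at least 50 counts (background 23.6%). The kinase Grk3 was at 16.8 TPM in pup 1, against 17.1 TPM in pup 3.

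Of 11 genes of glutamate supply and clearance, 8 were detected in both pups. Besides Slc1a3, the highest were the glutamine synthetase Glul at 168.9 ± 40.7 TPM, Slc17a6, which loads glutamate into vesicles, at 88.9 ± 26.5 TPM (SD, n = 2 each). The neuronal transporter Slc1a1 was at 93.1 TPM in pup 1, against 5.29 TPM in pup 3. As a median the list had 19.1 TPM in pup 1, against 17.4 TPM in pup 3.

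Ionotropic glutamate receptors, the channels that glutamate opens directly, were detected in both pups for 13 of 18 subunits. This stands beside 4 of 7 metabotropic receptors and 37.8% of protein-coding genes. Their medians were 2.49 TPM in pup 1, against 14.5 TPM in pup 3, beside 1.70 and 27.03 TPM for the metabotropic genes. By mean level the AMPA receptor subunit Gria2 was the highest at 206.3 ± 50.4 TPM, followed by the kainate receptor subunit Grik1 at 48.1 ± 6.03 TPM and Gria1 at 40.3 ± 18.9 TPM (SD, n = 2 each). The NMDA receptor subunit Grin2b was at 9.68 TPM in pup 1, against 67.3 TPM in pup 3, and the kainate receptor subunit Grik2 at 0.203 and 74.5 TPM. Grm3 lay below only Gria2 of these subunits in pup 1, and below Gria2, Grik2 and Grin2b in pup 3. Of 15 subunits with at least 50 counts, 1 was at least 4-fold higher in pup 1 (Grik4) and 6 in pup 3 (Grin2b, Grik2, Grin3a, Grid1, Gria3 and Grin2d), with backgrounds of 23.6% and 16.2%. Among 11 other receptors of class C, the class that holds the metabotropic glutamate receptors, 3 were detected in both pups, the GABA-B subunits Gabbr1 at 29.4 ± 14.3 TPM and Gabbr2 at 34.03 ± 26.2 TPM (SD, n = 2 each) and the orphan receptor Gprc5b at 0.418 TPM in pup 1, against 15.6 TPM in pup 3. The taste receptor Tas1r1 had 0 counts in pup 1, against 174 in pup 3.

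**Figure D5:**
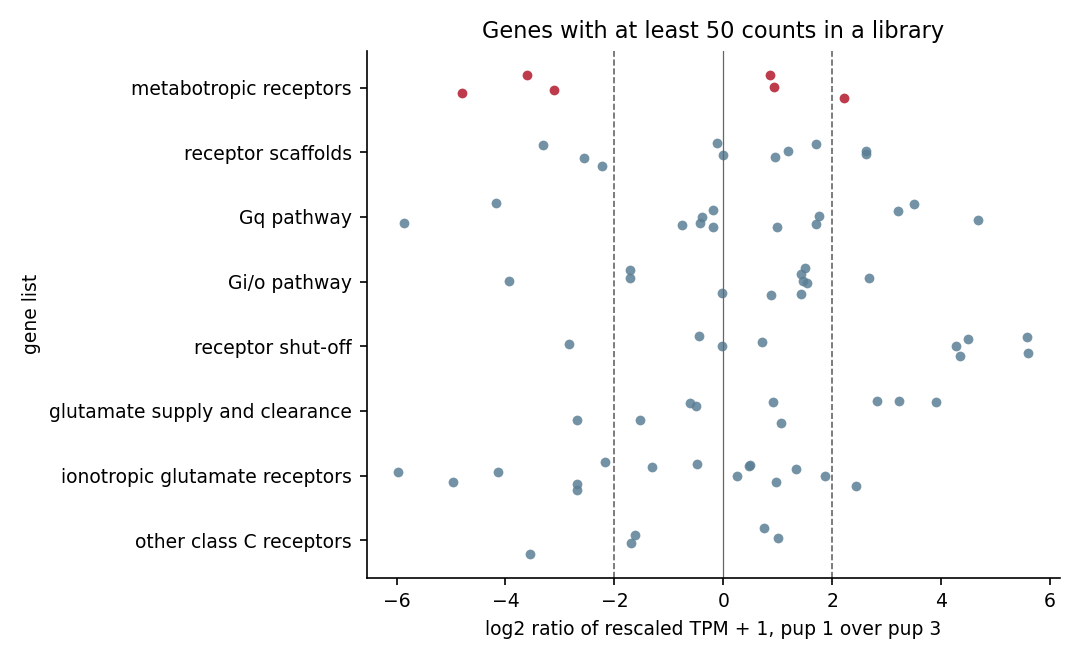
Log2 ratio of pup 1 over pup 3 (horizontal) for every gene with at least 50 counts in a library, in the metabotropic family and the lists of related genes, 1 point per gene, with the metabotropic receptors in red and a vertical jitter without meaning; dashed lines mark 4-fold. Of the metabotropic genes 3 lie left of the lines and 1 right, of the ionotropic subunits 6 and 1, and of the shut-off genes 1 and 5.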

How the data were processed

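RNA of P0 hindbrain was sequenced from 2 pups, 1 library each. The authors deposited a gene and a transcript table per library, made on mm10 with annotation M4, per the README deposited with them. Per the file headers these give an expected count (an estimate, not whole where reads are shared), TPM over all entries, spike-ins included, FPKM, and the percent of a gene's TPM per transcript. The sources used here do not name the aligner or its version.

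Of 43346 mouse gene identifiers 42462 matched GENCODE M21 (GRCm38, the same assembly). TPM was rescaled over 43309 nuclear genes with pandas 2.3.3 and SciPy 1.17.1. Detection needed an expected count of 5, a fold call 4-fold in TPM + 1 with a count of at least 50 in a library. The pseudocount understates differences of low genes. Ratios of counts carry exact 95% intervals conditional on their sum.

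The members and gene lists were chosen with earlier results of these data known. All members are named, and of each list the highest 4 genes and those past 4-fold where counted. Some genes that this rule names are not reported here. Other list genes were chosen after their values were seen. With 2 libraries no gene of like pattern was sought.

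Alternatives were other detection limits, thinning, pseudocounts and folds, deposited TPM, FPKM and CPM, scaling by edgeR 4.0.16, DESeq2 1.42.0 (rounded expected counts) or ERCC spike-ins, and each library alone. The fold count with 5 TPM added and on CPM was chosen after seeing the data.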

Additional observations from a re-analysis of the deposited data

How the results depend on the processing

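In both libraries 4 members were detected when 5 or 10 counts were required, at 1 TPM and after thinning the deeper library. In pup 1, the deeper library, each member had 0, 1 or at least 114 counts, so thinning was bound to leave the number as it was. When 1 count was enough the number was 6, since Grm4 and Grm8 had 1 count each in pup 1. The direction of the ratio between the pups was the same for all 6 measured members under every scaling tried, and a pseudocount cannot change a direction. The median log2 ratio of protein-coding genes detected in both pups was -0.29 under the spike-in scaling and -0.05 with DESeq2 factors, against -0.14 in TPM. These shifts were small beside the smallest member ratio, 0.87 for Grm5, so the scalings could hardly have turned a direction. Of the 6 members with at least 50 counts in a library, 4 were apart at the limits of 2-fold and 4-fold, and 3 at 8-fold. Of the 11245 protein-coding genes with that count, 61.9% were apart at 2-fold, 39.8% at 4-fold and 27.4% at 8-fold. At 4-fold the number of members was 3 on CPM and 2 with 5 TPM added, settings for which no share of all genes was computed. With 5 TPM added the log2 ratio of Grm4 was -1.34 and that of Grm7 1.83. In units of other scale, the summed mean level of the members was 117.7 in FPKM and 467.7 in CPM, against 197.5 in TPM. Counted in expected counts, which are not per length, the mean shares of groups 1, 2 and 3 were 32.01%, 51.6% and 16.4%, against 20.9%, 56.97% and 22.1% in TPM. With either library alone the summed level lay between 170.1 and 224.9 TPM, and the shares between 17.4% and 24.4% for group 1, 56.7% and 57.2% for group 2 and 18.9% and 25.3% for group 3. At 1 TPM, 8 ionotropic subunits in place of 13 counted as detected in both. No paired analysis was possible because the series holds 1 group. With 1 library per pup, differences between animals and those of capture at this input cannot be told apart.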
